A study of Mus musculus with 14 samples.

Results

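Translation initiation and elongation factors were followed in mouse brainstem, in RNA bound to tagged ribosomes and in total homogenate. They were taken as the gene symbols beginning Eif1 to Eif6, Eef1 or Eef2, without symbols marked as pseudogenes and without the Y-linked Eif2s3y. The rule found 88 genes among the 55422 entries of the deposited count table. Of these, 69 fell into role groups and 19 belonged to no group.

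Each round of protein synthesis begins when eIF2, bound to GTP, brings the initiator tRNA to the small ribosomal subunit, where eIF1, eIF1A, eIF3 and eIF5 assemble. The cap-binding eIF4E, the scaffold eIF4G and the helicase eIF4A recruit the mRNA, the complex scans to the start codon, and eIF5B joins the large subunit. eEF1A then delivers aminoacyl-tRNAs and eEF2 moves the ribosome along. Kinases that phosphorylate eIF2, the 4E-BPs that hold eIF4E, and the kinase of eEF2 slow these steps, and neurons use them to adjust protein synthesis to stress and activity.

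The animals were TH-Cre mice crossed with Slc6a2-eGFP/Rpl10a, on a C57Bl/6 background and 2 to 3 months old. TH is tyrosine hydroxylase and Slc6a2 is the noradrenaline transporter, whose promoter drives a ribosomal protein fused to eGFP, so that ribosomes of noradrenergic neurons can be pulled down. Human tau carrying the P364S mutation was infused into the locus coeruleus of 4 animals (B, C, L and M), and the fluorescent protein EYFP into that of 3 animals (H, I and K). Animals B, I and L were labelled male and C, H, K and M female. From each animal the ribosome immunoprecipitate (IP) and the brainstem homogenate it was made from (pre-IP) were sequenced, 14 libraries in all. Levels are CPM, counts per 1000000 counts of a library whose total was scaled by the TMM method (a trimmed mean of log ratios between libraries).

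Libraries held 41843489 to 65664551 counts. The noradrenergic markers checked the tissue and the pull-down: 12 of 12 passed the test as higher in IP, and none was at 0 in any library. That test pooled the treatments. In the EYFP animals alone, Cyb561 had a mean of 181 CPM in pre-IP and 179 in IP. The other markers had higher means in IP there, such as Gch1 (13.9 and 16.1 CPM) and Slc6a2 (8.99 and 23.4 CPM). Of the markers of other cells, 1 of 10 astrocyte, 2 of 10 oligodendrocyte and 1 of 10 other neuron markers were also called higher in IP, and 2, 2 and 1 of these lists and 3 of 10 microglial markers lower, with medians from -0.37 to -0.10. Their part in the calls of IP against pre-IP was not tested. The mean log2 enrichment of the noradrenergic markers in IP over pre-IP was 4.25, 3.40, 3.37 and 1.64 in tau animals B, C, L and M. It was 0.66, 0.83 and 0.64 in EYFP animals H, I and K. The treatments did not overlap in this enrichment, so treatment and purity of the IP cannot be told apart in the comparison of the IPs. In bulk RNA, fewer cells of a type and less RNA per cell cannot be told apart either. The EYFP IP of animal I had an RNA integrity number of 4.2, against 7.7 to 9.0 in the other libraries. Animal K, labelled EYFP, had 408 counts of the tau construct in pre-IP and 398 in IP, against 2 to 18 in the other EYFP libraries and 3527 to 47177 in tau libraries. Animal M, labelled female, had 437 and 940 counts of the Y-linked genes Ddx3y, Uty and Kdm5d. Animals are the replicates, and in comparisons of treatments within a fraction the p-values measure the spread between these animals. The edgeR tests of IP against pre-IP and of the interaction had no term for the animal. Their p-values measure the spread between libraries, with both libraries of an animal taken as independent. With the animal as a block, IP against pre-IP shared 23 of 24 factor calls.

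Of the 88 genes, 65 reached 3 counts in all 14 libraries, and 65 passed the low-count filter for IP against pre-IP. The other 23 were not tested. No count was found in any library for 19 of them, namely 17 members of the Eif1ad family on chromosome 12, Eif4e1b and Eef1ece2. A count of 0 allows up to 3 counts in a library. The other 4 were Eif4a3l1, Eif4a3l2, Eif2c5l and Eif4ebp3. The highest count in any library was 2 for Eif4a3l1 and for Eif4ebp3, 6 for Eif2c5l and 10 for Eif4a3l2. Eif4ebp3 encodes the third 4E-BP, so only the remaining pair of 4E-BPs could be followed. The factors together took 0.940 to 1.13% of the counts in pre-IP libraries, 1.04 to 1.14% in EYFP IP and 1.12 to 1.18% in tau IP.

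Per length, the most abundant factors in total homogenate were small or served every round of elongation. Eif1, which guards start-codon choice, stood at 548 ± 37.6 CPM per kilobase of exon (SD, n = 7 pre-IP libraries). Eif5a, whose hypusine-bearing protein eases peptide bond formation, stood at 435 ± 36.1, and Eef1a1 at 332 ± 47.7. Eef2 followed with 263 ± 27.1 and Eif1b, a close relative of Eif1, with 229 ± 8.85. The ranges of Eif1, Eif5a and Eef1a1 did not overlap (498 to 601, 391 to 479 and 244 to 388). Those of Eef1a1 and Eef2 (227 to 306) overlapped, as did those of Eef2 and Eif1b (216 to 242). Eif1b ranked sixth when the longest transcript was used as length, and the other 4 kept their places. Reads of Eef1a1 can also match its pseudogenes, so its level is uncertain.

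IP was set against pre-IP to find which factors were higher in the immunoprecipitate than in whole brainstem. The joining factor Eif5b, 2 subunits of eIF2, 6 subunits of eIF3 and the scanning factors Eif5 and Eif1a were higher in IP. Eif5b, Eif2s2 and Eif3a rose most. Their mean log2 rise per animal was 1.34, 1.57 and 1.28 in tau animals and 1.85, 1.26 and 1.55 in EYFP animals. Whether these rises follow the noradrenergic enrichment of the IPs was not tested. Among the elongation factors, 1 of 6 tested genes of the eEF1 group was called higher, Eef1b2, and Eef2 was not called. Among 65 factors tested, 19 were called higher and 5 lower (edgeR quasi-likelihood test, adjusted p under 0.05), beside 15.6% of all 19472 genes called higher and 14.2% called lower. The median log2 change was 0.21 for the factors and -0.00 for all genes, and 48 of the 65 changes were positive.

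The coding sequences of these genes differ in their stretches of lysine codons, and the stretches are shown because base composition varied with the change. For the 4 factors with the largest rise and the 4 with the largest fall, the 60-base stretch of coding sequence richest in A is given below, read from the GENCODE M21 transcripts of GRCm38, 5′ to 3′ and in frame, with the lysine codons AAA and AAG in capitals. Eif5b to Eif2ak2 were higher in IP, and Eif2ak4 to Eef2k were lower.
Eif5b: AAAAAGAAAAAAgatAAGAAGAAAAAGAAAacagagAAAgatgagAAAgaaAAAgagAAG
Eif2s2: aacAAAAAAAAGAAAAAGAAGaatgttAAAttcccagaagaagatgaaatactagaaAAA
Eif3a: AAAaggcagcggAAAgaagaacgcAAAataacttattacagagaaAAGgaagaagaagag
Eif2ak2: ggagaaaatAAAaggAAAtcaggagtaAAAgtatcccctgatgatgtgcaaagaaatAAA
Eif2ak4: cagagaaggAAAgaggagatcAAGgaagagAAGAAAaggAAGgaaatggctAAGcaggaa
Eif2ak1: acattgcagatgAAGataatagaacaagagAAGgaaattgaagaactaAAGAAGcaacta
Eif3b: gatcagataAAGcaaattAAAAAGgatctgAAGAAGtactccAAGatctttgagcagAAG
Eef2k: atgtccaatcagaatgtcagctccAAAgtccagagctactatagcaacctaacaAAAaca

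The windows of Eif5b and Eif2s2 hold 13 and 8 lysine codons among 20, and 43 and 38 bases A among 60. That of Eef2k holds 2 lysine codons and 25 A, but the windows of Eif3b and Eif2ak4 hold 7 and 6 lysine codons, more than the 4 of Eif3a or of Eif2ak2. Over whole coding sequences, lysine codons made up a median of 7.72% of codons in the factors called higher, 5.33% in those called lower and 6.90% in those not called. The same medians over all coding genes tested were 6.93%, 4.76% and 5.38%.

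**Figure D1:**
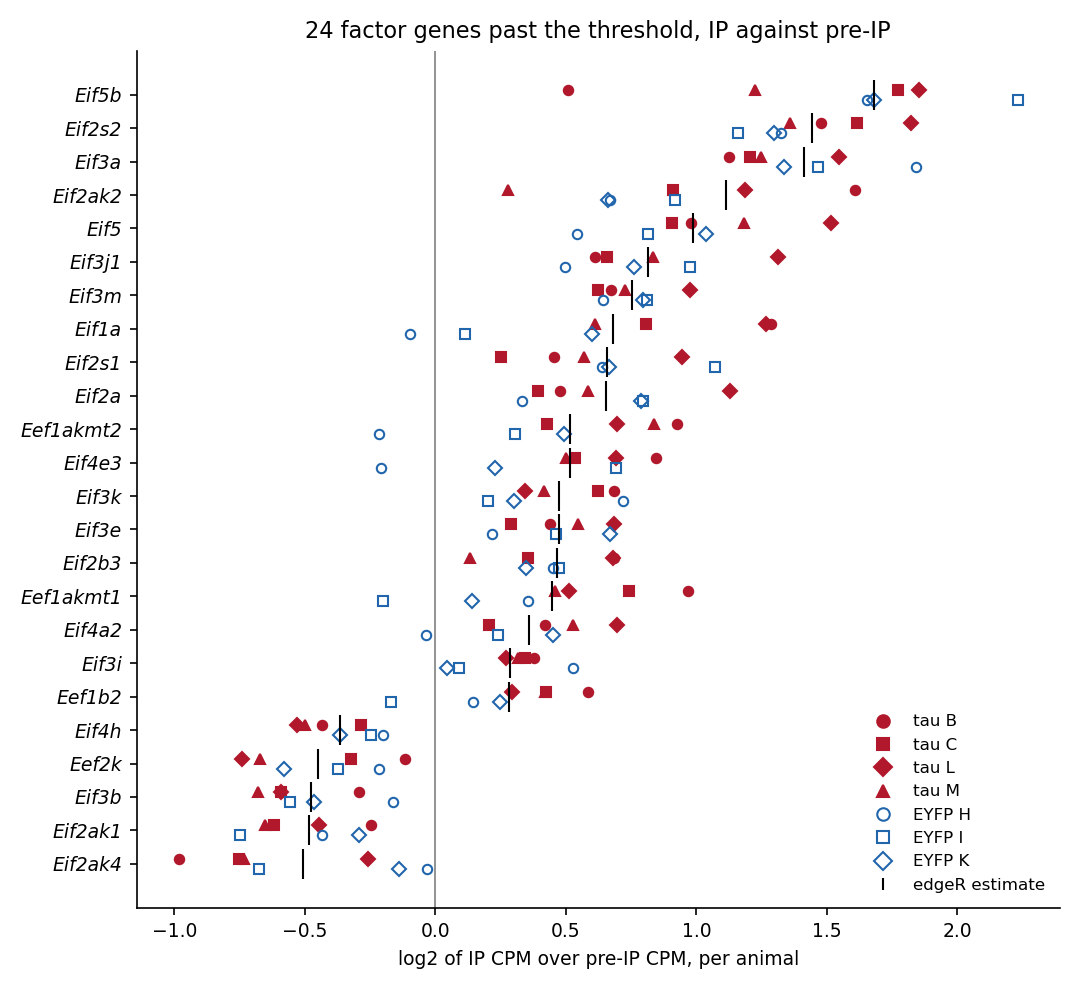
Log2 of IP CPM over pre-IP CPM (horizontal axis) for each factor called in IP against pre-IP (vertical axis), with 1 symbol per animal, tau and EYFP animals in different colours. Eif5b, Eif2s2 and Eif3a lie above 0 in 7 of 7 animals, and Eef2k, Eif2ak1, Eif2ak4, Eif3b and Eif4h lie below 0 in 7 of 7.

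Eif5b (chromosome 1, 37998010 to 38055579, plus strand, GRCm38), the GTPase that joins the large subunit, stood at 6.16, 9.39 and 7.52 CPM in the pre-IPs of H, I and K and at 10.6, 9.97, 6.93 and 7.38 in those of B, C, L and M. In IP it stood at 20.4, 46.0 and 25.2 CPM in H, I and K and at 15.2, 35.2, 26.3 and 17.9 in B, C, L and M. Every IP library lay above every pre-IP library, and the IP of animal I, the one with the low integrity number, was the highest. The log2 fold change was 1.68 (SE 0.23, edgeR adjusted p = 0.000104), and 1.52 without animal I. Eif5b shares exonic bases with Rev1 on the other strand. Eif6, which keeps free large subunits from joining, had a log2 change of 0.21 that did not pass (edgeR adjusted p = 0.103).

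The ternary complex genes moved unequally, and those of the 3 subunits of eIF2 did not move as a unit. Eif2s2 (chromosome 2, 154871410 to 154892935, minus strand), the beta subunit, stood at 23.2, 41.0 and 30.1 CPM in the EYFP pre-IPs (H, I, K) and at 45.3, 38.2, 23.6 and 29.3 in the tau pre-IPs (B, C, L, M). Its IP values were 58.7, 92.2 and 74.6 CPM for EYFP and 127, 118, 84.5 and 75.7 for tau. The fractions did not overlap, and the log2 fold change was 1.44 (SE 0.18, edgeR adjusted p = 7.4e-05).

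Eif2s1, the alpha subunit on which stress signals act, was higher by 0.66 in log2 terms, with an SE of 0.14 (edgeR adjusted p = 0.00234). Eif2s3x, the X-linked gamma subunit, had a log2 change of -0.30 that did not pass (edgeR adjusted p = 0.19). Eif2a, a separate protein that can carry initiator tRNA, rose by 0.65, and Eif2d, another such carrier, had -0.17 and did not pass. Of the 5 subunits of eIF2B, which reloads eIF2 with GTP, only Eif2b3 was called (0.47, edgeR adjusted p = 0.00544).

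The eIF2 kinases split. Eif2ak2 (chromosome 17, 78852564 to 78882573, minus strand), the kinase activated by double-stranded RNA, was scarce: 0.988 to 1.73 CPM over the 7 pre-IPs with a median of 1.46, and 2.18 to 4.03 CPM over the 7 IPs with a median of 3.02. The fractions did not overlap, and the log2 fold change was 1.11 (SE 0.22, edgeR adjusted p = 0.00126). Eif2ak4, the sensor of amino acid shortage (chromosome 2, 118388618 to 118475234), lay at 14.9, 14.02 and 14.2 CPM in EYFP pre-IP and at 13.9, 14.3, 12.2 and 13.6 in tau pre-IP. In IP it lay at 14.5, 8.59 and 12.9 CPM for EYFP and at 6.77, 8.30, 10.1 and 7.99 for tau. It was lower in IP in all 7 animals, with the smallest differences in EYFP animals H and K. The log2 fold change was -0.51 (SE 0.14, edgeR adjusted p = 0.0121). Eif2ak1, activated when heme is short, fell by 0.49 on the log2 scale (edgeR adjusted p = 0.0015) and shares exonic bases with Aimp2 and Ankrd61 on the other strand. Eif2ak3, the kinase of endoplasmic reticulum stress, had -0.27 and did not pass.

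Among the 14 tested subunits of eIF3, the scaffold that holds the scanning complex together, 6 were higher, 1 was lower and 13 had a positive change. Eif3a (chromosome 19, 60761117 to 60790658, minus strand), its largest subunit, stood at 17.4, 28.7 and 17.9 CPM in EYFP pre-IP and at 26.9, 25.6, 17.1 and 16.2 in tau pre-IP. Its IP values were 63.8, 80.1 and 46.0 CPM for EYFP and 59.3, 59.6, 51.0 and 39.1 for tau. No pre-IP library reached the lowest IP library, and the log2 fold change was 1.41 (SE 0.17, edgeR adjusted p = 6.9e-05).

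Eif3j1, a loosely held subunit, rose by a log2 fold change of 0.81 and Eif3m by 0.75, both with no overlap of fractions, and Eif3k, Eif3e and Eif3i rose by 0.47, 0.47 and 0.29. Eif3j1 overlaps Spg11 and Eif3m overlaps Ccdc73 on the other strand, and reads of Eif3j1 may match its copy Eif3j2. Eif3b (chromosome 5, 140419328 to 140443360), which forms the core with Eif3a, moved the other way. It lay at 201, 206 and 202 CPM in EYFP pre-IP and 172, 190.3, 219 and 239 in tau pre-IP, and at 179.8, 140.1 and 147 CPM in EYFP IP and 140.4, 126, 146 and 149 in tau IP. Only the IP of animal H (179.8 CPM) exceeded a pre-IP library, that of animal B, and the log2 fold change was -0.48 (edgeR adjusted p = 0.00166). Eif3d, Eif3f, Eif3g, Eif3h and Eif3l had changes of 0.09, 0.17, 0.23, 0.11 and 0.06 that did not pass.

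Eif5, the factor that triggers GTP hydrolysis on eIF2, was at 114 to 205 CPM over the 7 pre-IPs (median 161) and at 235 to 404 CPM over the 7 IPs (median 306). The fractions did not overlap, and its log2 fold change was 0.99 (SE 0.14, edgeR adjusted p = 0.000151). Its exons contain the small nucleolar RNA gene Snora28. Eif1a, needed for scanning, rose by 0.68 (edgeR adjusted p = 0.0135). Its reads may also match Eif1ax (0.34, edgeR adjusted p = 0.0558). Eif1 (0.13), Eif1b (0.24) and Eif1ad (-0.03) did not pass.

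In the cap-binding machinery 2 factors were higher and 1 was lower. Of the 3 scaffolds, Eif4g1, Eif4g2 and Eif4g3 had log2 changes of -0.09, -0.06 and 0.21, and none passed. Among the cap-binding proteins, Eif4e3 was called higher (0.52, edgeR adjusted p = 0.0132), while Eif4e (0.03) and Eif4e2 (-0.19) were not called. Eif4enif1, which carries eIF4E into the nucleus, had -0.09. The helicase Eif4a2 rose by 0.36 (edgeR adjusted p = 0.0162), and Eif4a1 (0.22), Eif4a3 of the exon junction complex (0.14) and Eif4b (-0.10) did not pass. Eif4h, a helper of the helicase, fell by 0.36 on the log2 scale (edgeR adjusted p = 0.0104). The inhibitors Eif4ebp1 and Eif4ebp2 had changes of 0.27 and 0.21 that did not pass.

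In elongation, Eef2 ran from 755 to 1017 CPM over the pre-IPs and from 707 to 1234 CPM over the IPs, with fractions that overlapped fully and a log2 change of 0.07 (SE 0.12, edgeR adjusted p = 0.696). Eef1a1 (0.12), its neuronal and muscle form Eef1a2 (0.22), Eef1d (0.01) and Eef1g (0.13) did not pass, nor did Eif5a (0.07) or Eif5a2 (0.06). Eef1b2, which exchanges the nucleotide on eEF1A, was called (0.28, edgeR adjusted p = 0.0334), but not with the animal as a block (0.27, edgeR adjusted p = 0.0577), nor when animal B, C, H, K, L or M was left out (edgeR adjusted p up to 0.131). It shares exonic bases with Ndufs1 on the other strand. Eef1e1, a protein of the aminoacyl-tRNA synthetase complex, had 0.53 (edgeR adjusted p = 0.0559).

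Among enzymes that modify the elongation factors, Eef2k (chromosome 7, 120842831 to 120907450), the kinase that inhibits eEF2, was at 18.6 to 29.7 CPM over the pre-IPs (median 21.6) and at 15.004 to 18.5 CPM over the IPs (median 16.9). The fractions did not overlap, though they came close, and the log2 fold change was -0.45 (SE 0.11, edgeR adjusted p = 0.00724). The methyltransferases of eEF1A, Eef1akmt1 and Eef1akmt2, rose by 0.45 and 0.52, and Eef1akmt3 (0.83, edgeR adjusted p = 0.132), Eef1akmt4 and Eef2kmt did not pass. Further calls were lost when 1 animal was left out: Eif3i without C, H, L or M, Eef1akmt1 without C, H or L, Eef1akmt2 without C, L or M, Eif4e3 without C, I or L, and Eif4a2 without L or M. Without animal I, 19 factors were higher and 5 lower.

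In all, 8 factors had every IP library above every pre-IP library and 1 had the reverse, beside 4.12% and 5.27% of all genes tested. With library totals the counts were 9 and 1, beside 3.57% and 5.58%: Eif2b3 was added, and Eif4h was separated in place of Eef2k. With TMM they were Eif2a, Eif2ak2, Eif2s2, Eif3a, Eif3j1, Eif3m, Eif5 and Eif5b, and Eef2k. Within the tau animals alone, 17 factors were called higher and 4 lower, beside 10.4% and 10.3% of all genes. Within the EYFP animals alone, 7 were called higher and 0 lower, beside 3.96% and 2.41% of all genes (edgeR, adjusted p under 0.05). Those 7 were Eif2s1, Eif2s2, Eif3a, Eif3j1, Eif3m, Eif5 and Eif5b. In 3 of the tau animals the IP was 3.37 or more log2 units above the pre-IP in noradrenergic markers, and in the EYFP animals 0.83 or less. The EYFP fit also had fewer animals, 3 against 4. The parts of this gap and of the number of animals in the smaller count were not tested.

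**Figure D2:**
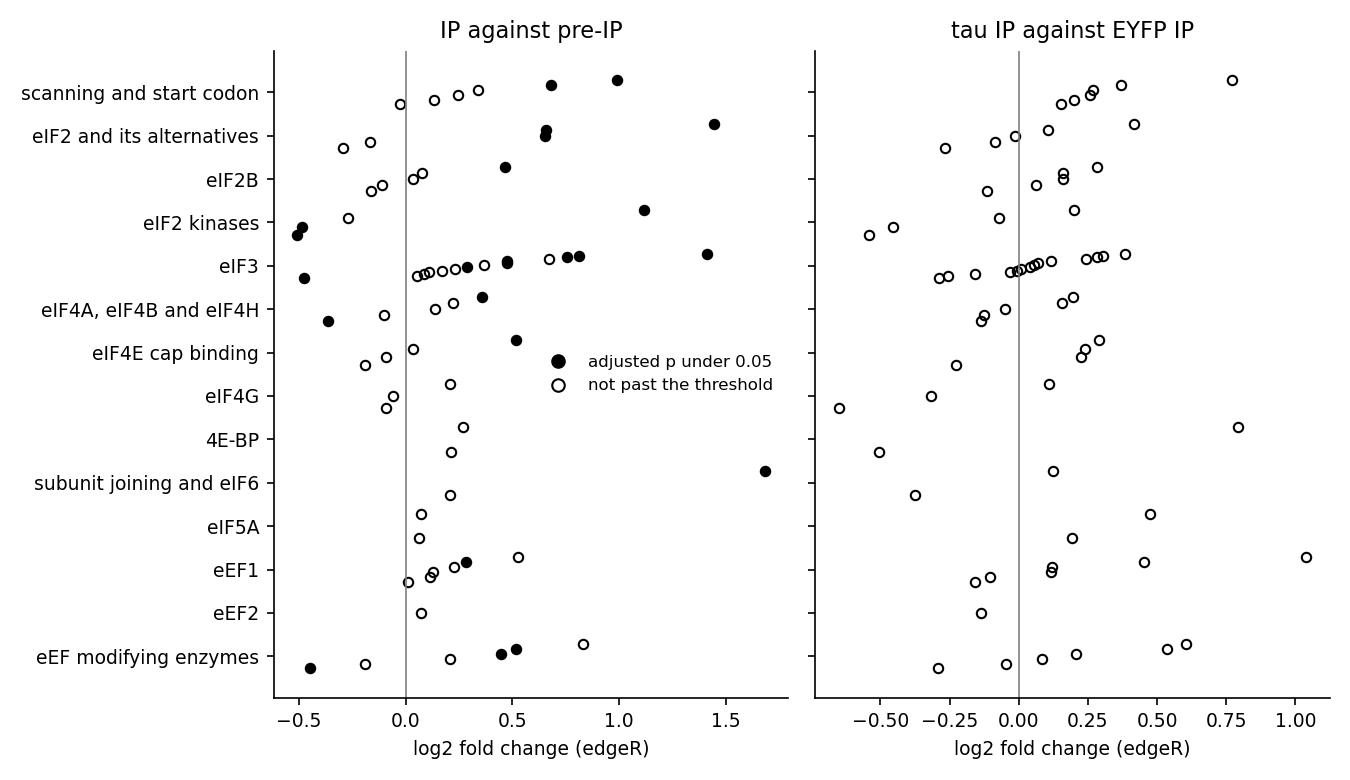
Log2 fold change from edgeR (horizontal axis) of every tested factor, 1 point per gene, by role group (vertical axis), for IP against pre-IP (left) and tau IP against EYFP IP (right). Filled points passed an adjusted p of 0.05: 19 higher and 5 lower in IP against pre-IP, and 0 in tau IP against EYFP IP.

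Related lists give the scale of these changes. Of 79 tested genes for cytosolic ribosomal proteins, 72 were called higher in IP and 0 lower, with a median log2 change of 0.56. Of the 9 factors whose mRNAs carry a 5′ terminal oligopyrimidine tract (Eef1a1, Eef1b2, Eef1d, Eef1g, Eef2, Eif3e, Eif3f, Eif3h and Eif4b), a tract shared with ribosomal protein mRNAs, 2 were called higher, Eef1b2 and Eif3e, and the median was 0.12. Of 40 other genes of the translation pathway, 13 were higher and 11 lower. Among all 19472 genes tested, 15.6% were called higher and 14.2% lower. The helicase Ddx3x (1.08), the ribosome recycling ATPase Abce1 (0.96), the repressor Fmr1 (0.87) and the termination factor Etf1 (0.72) rose, while the kinase Mtor (-0.95), its partner Rptor (-0.52) and its inhibitor subunits Tsc1 (-0.58) and Tsc2 (-1.27) fell. Members of the same pathways also moved in opposite directions: the mTOR target kinase Rps6kb1 (0.62) and Larp1 (0.86), which binds terminal oligopyrimidine mRNAs, rose, and the Fmr1 partners Cyfip1 (-0.52) and Cyfip2 (-0.97) fell.

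Base composition varied with these changes. Called factors that rose had a median coding GC of 44.1% (18 with a coding sequence used), those that fell 55.1% and those not called 52.9%. Over 64 factors, the log2 change in IP fell with coding GC (Spearman correlation -0.42, Pearson's r -0.48, across genes, which are not independent replicates), and over all 15267 coding genes tested the Spearman correlation was -0.37. Over the factors it was -0.54 in the tau animals alone and -0.25 in the EYFP animals alone. In the lowest tercile of all genes by GC (under 50.3%), 15 of 28 factors were higher and 1 lower, beside 31.6% and 5.31% of all genes there. In the middle tercile 3 of 25 were higher and 4 lower (11.1% and 20.5% of all genes), and in the highest tercile (over 56.3%) none of 11 was called (8.70% and 25.7%). Points share their libraries, and the part of base composition in the calls was not tested.

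**Figure D3:**
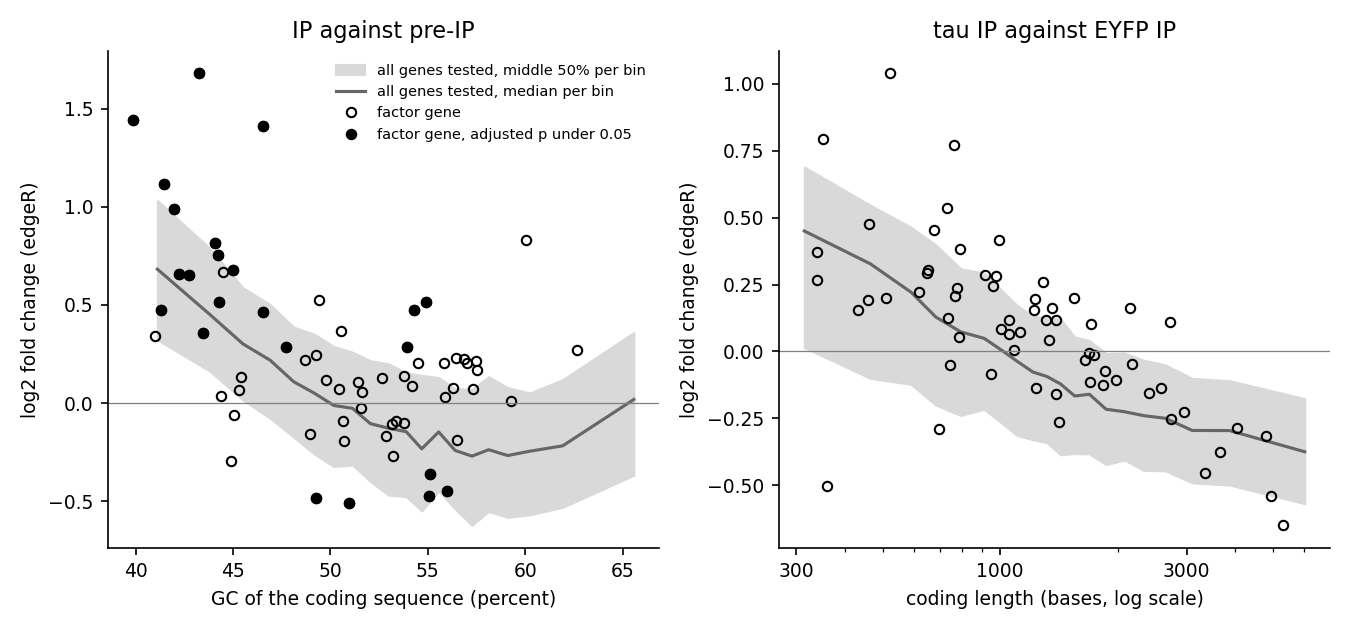
Left, log2 fold change in IP against pre-IP (vertical axis) against GC of the coding sequence in percent; right, log2 fold change in tau IP against EYFP IP against coding length in bases on a log axis. Points are factors, filled where adjusted p was under 0.05, and the grey line and band are the median and middle 50% of all genes tested in bins of equal size. The factors slope down with a Spearman correlation of -0.42 on the left and -0.69 on the right.

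Tau IP was set against EYFP IP to ask how RNA in the immunoprecipitate differed between the treatments. No factor passed the test. The largest differences were those of Eef1e1, Eif4ebp1 and Eif1a upwards and Eif4g3, Eif2ak4 and Eif4ebp2 downwards. Of all 19472 genes, 0.0% passed an adjusted p of 0.05 in edgeR, and limma-voom also called 0. At an unadjusted p under 0.05, 7 factors were higher and 1 lower, beside 7.93% and 4.06% of all genes. With 1 animal left out there were 5 to 8 higher and 1 to 2 lower, the latter 2 without H, L or M. DESeq2 called 3 factors, Eef1e1, Eef1b2 and Eif1a, beside 2.11% of all genes, and edgeR over all 14 libraries called 1, Eef1e1, beside 0.986%. On the IPs alone, edgeR called 126 genes higher and 2 lower without animal M. Without the low-count filter it called 108 and 5, and in both cases 0 factors.

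The median log2 change was 0.11 for the factors and -0.08 for all genes. Scaling by library totals in place of TMM moved these to 0.01 and -0.18, a shift of the median of all genes by 0.10, so each change below depends on the scaling by about that amount. In 11 factors every tau IP library lay above every EYFP IP library and in 0 below, beside 8.62% and 5.84% of all genes. They were Eef1akmt1, Eef1akmt2, Eef1b2, Eef1e1, Eif1, Eif1a, Eif3i, Eif3k, Eif4e, Eif4ebp1 and Eif5a. With library totals the counts were 7 and 2 (Eif4a3 and Eif4b), beside 6.36% and 9.22%.

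Eef1e1 (chromosome 13, 38644207 to 38659058, minus strand) had 69.2, 81.7 and 82.1 CPM in the IPs of EYFP animals H, I and K and 253, 144, 137 and 112 CPM in those of tau animals B, C, L and M. Its pre-IP values were 82.0, 94.6 and 70.0 CPM for EYFP and 87.4, 81.9, 82.4 and 77.6 for tau. The groups did not overlap in IP and overlapped fully in pre-IP, and animal B stood far above the rest in IP. The log2 difference in IP was 1.04 (SE 0.26, edgeR adjusted p = 0.318). Leaving out 1 animal at a time gave 0.75 to 1.18, with 1.06 without animal K.

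Eef1b2 had 201, 188 and 205 CPM in EYFP IP and 318, 262, 256 and 260.2 in tau IP, again without overlap and with animal B highest. The log2 difference was 0.45 (SE 0.14, edgeR adjusted p = 0.318). Other members of the eEF1 group had smaller differences, none past the test: 0.12 for Eef1a1, 0.12 for Eef1g, -0.11 for Eef1d and -0.16 for Eef1a2.

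All 6 genes placed in the scanning and start-codon group had a positive difference in tau IP, with a median of 0.26. Eif1a had 68.0, 95.3 and 94.5 CPM in EYFP IP and 214, 147, 129.7 and 102 in tau IP, and the lowest tau library, that of animal M, lay close above the EYFP libraries. Its log2 difference was 0.77 (SE 0.25, edgeR adjusted p = 0.319). Eif1, Eif1b, Eif5, Eif1ad and Eif1ax had 0.27, 0.37, 0.26, 0.20 and 0.15.

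Eif5a had 938, 855 and 889 CPM in EYFP IP and 1606, 1182, 1112 and 1115 in tau IP, so that animal B stood apart within the tau group. The log2 difference was 0.47 (SE 0.16, edgeR adjusted p = 0.319). Eef1akmt1 differed by 0.60 (edgeR adjusted p = 0.319) and Eef1akmt2 by 0.54 (edgeR adjusted p = 0.387).

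Among scaffolds and kinases the signs were mostly negative. Eif4g3 (chromosome 4, 137993022 to 138208508), a scaffold that bridges the cap and the ribosome, had 34.8, 60.1 and 49.5 CPM in EYFP IP and 29.1, 33.9, 37.9 and 22.6 in tau IP. The groups overlapped through EYFP animal H and tau animal L. The log2 difference was -0.65 (SE 0.24, edgeR adjusted p = 0.342), and -0.47 without animal I. Eif4g1 had -0.32 and Eif4g2, which works without cap binding, 0.11. Eif2ak4 had a log2 difference of -0.54 (edgeR adjusted p = 0.427), with values that overlapped through animal I. Eif2ak3 had -0.45, Eif2ak1 -0.07 and Eif2ak2 0.20.

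The 4E-BPs went opposite ways. Eif4ebp1 had 4.95, 2.99 and 3.77 CPM in EYFP IP and 9.90, 6.10, 6.17 and 5.17 in tau IP, without overlap, a log2 difference of 0.79 (SE 0.31, edgeR adjusted p = 0.369). Eif4ebp2 had 40.9, 27.8 and 19.3 CPM in EYFP IP and 15.8, 21.1, 20.1 and 26.1 in tau IP, with overlap, a log2 difference of -0.50 (SE 0.27, edgeR adjusted p = 0.494). Leaving out 1 animal at a time gave -0.75 to -0.21, the former without animal K and the latter without animal H, whose Eif4ebp2 value was the highest. Eif5b, the factor with the largest rise in IP over pre-IP, had a difference of -0.37 (edgeR adjusted p = 0.694) that became 0.04 without animal I. Eif2s2 had 0.42 and Eif3a -0.29, neither past the test. Eef2 and Eef2k had -0.14 and -0.05.

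**Figure D4:**
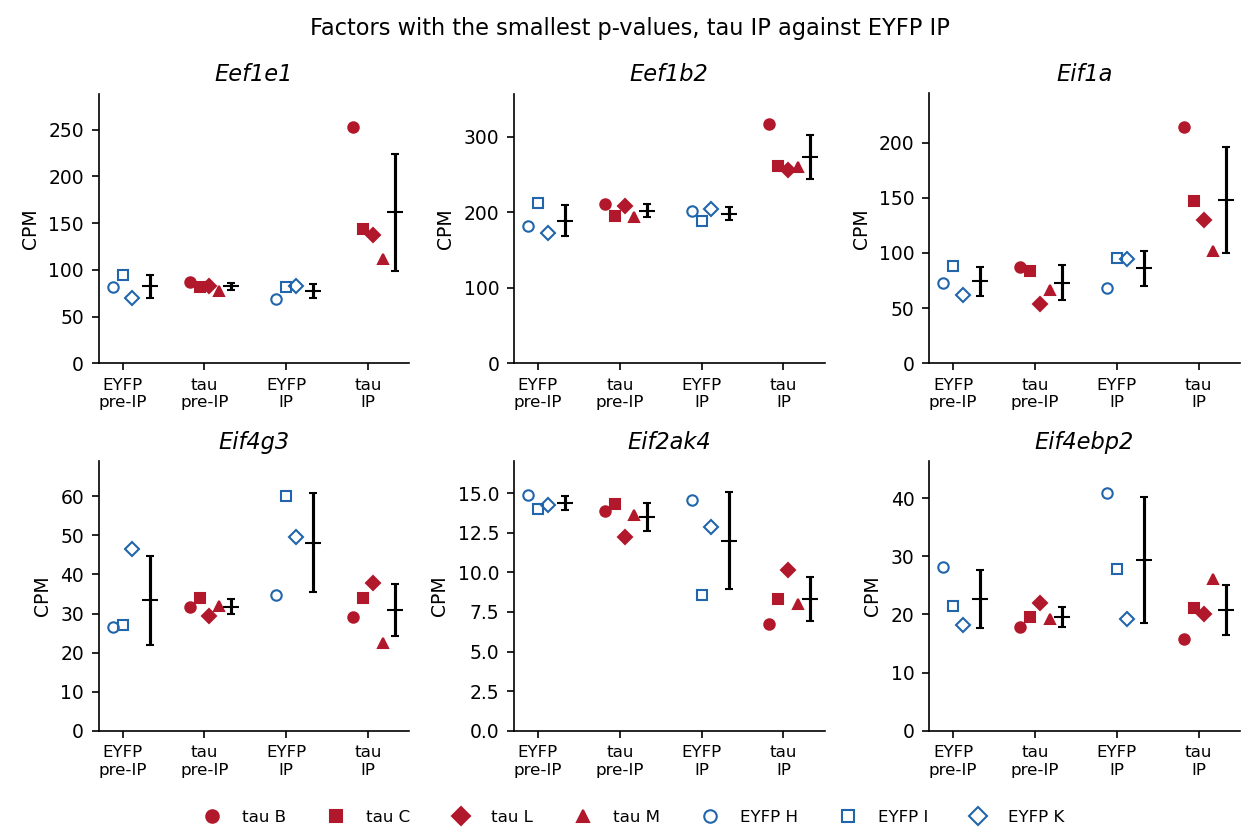
CPM (vertical axis, from 0) of the 3 factors with the smallest p-values in each direction in tau IP against EYFP IP, by group (horizontal axis), with 1 symbol per animal and black bars for mean and SD. Eef1e1, Eef1b2 and Eif1a separate the IP groups, with animal B highest at 253, 318 and 214 CPM, and Eif4g3, Eif2ak4 and Eif4ebp2 overlap.

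Some of these differences varied with the noradrenergic enrichment of the IPs. In the 4 tau IP libraries, Eef1e1 and Eif1a ranked B, C, L and M from high to low, the order of the enrichment, under TMM and under library totals. With TMM, 15 of 65 factors had this order, beside 11.4% of all genes, and 0 the reverse, beside 10.4%. With library totals 7 had the order, beside 8.52%, and 1, Eif3b, the reverse, beside 13.2%. The enrichment was also entered as a covariate, although the treatments do not overlap in it, which makes these estimates wide. The log2 differences were then 0.03 (SE 0.31) for Eef1e1, -0.19 (SE 0.32) for Eif1a, 0.10 (SE 0.24) for Eif5a and 0.28 (SE 0.24) for Eef1b2. Others moved further below 0: Eif3a went to -0.91 (SE 0.38), Eif4g1 to -0.82 (SE 0.37) and Eif4g3 to -1.16 (SE 0.48). Eef1a2 changed sign, from -0.16 to 0.82 (SE 0.56). No factor passed in that fit (edgeR adjusted p of 0.998 for each of these genes), and the median over the factors was -0.05, with 28 positive and 37 negative. The part of the enrichment in the differences cannot be told apart from that of treatment.

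Markers of other cells went down in tau IP as the noradrenergic ones went up. All 12 noradrenergic markers had a positive difference, with a median of 2.69. The differences were negative for 10 of 10 astrocyte, 9 of 10 oligodendrocyte, 10 of 10 microglial, 8 of 8 endothelial and 10 of 10 other neuron markers, none of them past the test (edgeR). Summed oligodendrocyte markers ran from 4570 to 11042 CPM in tau IP and from 8881 to 13630 CPM in EYFP IP, and no marker of these lists was at 0 throughout. RNA concentration was 0.1 to 0.8 ng per microlitre in tau IP and 0.7 to 2.8 in EYFP IP. The part of cell makeup and of RNA input in the factor differences was not tested.

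Coding length varied with the difference between the IPs. Over 64 factors, the Spearman correlation between coding length and the log2 difference was -0.69 (Pearson's r with log2 length -0.66), against a Spearman correlation of -0.40 over 15221 coding genes. Both are across genes that share their libraries. In the shortest tercile of all genes (up to 1023 bases), 24 of 28 factors had a positive difference and the median was 0.26, beside 0.16 for all genes. In the middle tercile the medians were 0.07 and -0.11, and in the longest tercile (over 1833 bases) -0.19 and -0.27, with 2 of 16 factors positive. The Spearman correlation was -0.62 to -0.70 when 1 animal at a time was left out, -0.64 without animal I, and -0.37 with noradrenergic enrichment as a covariate. In the pre-IPs it was -0.03 for 63 factors, but -0.26 over 15193 coding genes. For IP against pre-IP the correlation over the factors was -0.41 in the tau animals and 0.00 in the EYFP animals. The IPs of the treatments also differed in RNA concentration, given above, whose part in this slope was not tested.

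Tau pre-IP against EYFP pre-IP gave the same contrast in total homogenate. No factor passed the test there, and only the kinase gene Eif2ak3 reached an unadjusted p under 0.05. Of 19197 genes, 0.0% passed an adjusted p of 0.05 in edgeR, and DESeq2 also called 0. At an unadjusted p under 0.05, 0 of 64 factors were higher and 1 was lower, beside 0.578% and 2.26% of all genes, and the median log2 difference was 0.02 for the factors and -0.00 for all genes. The count turned to 3 higher and 0 lower without animal K, the EYFP animal with tau construct reads. It was 1 and 1 without I, and 0 and 2 without H. Without the low-count filter, edgeR called 23 genes higher and 21 lower at an adjusted p of 0.05, and 0 factors.

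Eif2ak3 had 10.8, 10.7 and 18.1 CPM in the pre-IPs of H, I and K and 6.61, 8.72, 10.2 and 7.22 in those of B, C, L and M, close but without overlap, and the library of animal K was the highest. The log2 difference was -0.69 (SE 0.23, edgeR adjusted p = 0.9998), and it was -0.39 without animal K, the animal with tau construct reads. Eif2ak3 was the 1 factor with every tau pre-IP library below every EYFP one, beside 322 of 19197 genes. In 2 factors, Eif3d and Eif1ad, every tau library lay above, beside 282 genes. The smallest p-values after that of Eif2ak3 were, upwards, those of the eIF3 subunits Eif3d (0.23), Eif3g (0.25) and Eif3i (0.17). Downwards they were those of Eif4enif1 (-0.19) and Eef1a2 (-0.30), and none of these was below 0.05.

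The interaction asked whether the effect of tau differed between IP and pre-IP. It called 0.0% of 20495 genes and 0 factors (edgeR), and DESeq2 called 52 genes and 0 factors. At an unadjusted p under 0.05, 5 factors were higher and 0 lower, beside 4.03% and 1.94% of all genes. Leaving out 1 animal moved this count: it was 2 and 0 without B or without C, 3 and 0 without H, 1 and 1 without I, and 4 and 3 without K. With all animals they were Eef1e1 (1.05, edgeR adjusted p = 0.598), Eif4ebp1 (0.86), Eif1a (0.81), Eef1akmt1 (0.61) and Eef1b2 (0.37). On the lower side the smallest p-values were those of Eif4g3 (-0.56, edgeR adjusted p = 0.824, from -0.89 without K to -0.27 without I), Eif4a3 (-0.35) and Eif2ak4 (-0.44), and Eif5b had -0.55 (edgeR adjusted p = 0.871). Without animal M, edgeR called 54 genes higher and 2 lower for the interaction. Without the low-count filter it called 64 and 3, and in both cases 0 factors. This comparison and the preceding ones share libraries, so their values are not independent.

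For 7 pairs of related genes, ratios were taken within each library. The ratios per kilobase have nothing added and do not depend on scaling, and the log2 ratios that were tested have 0.5 CPM added to each gene, which pulls the ratios of scarce genes such as Eif4ebp1 towards 0. Per kilobase, Eef1a2 was 0.048 to 0.191 of Eef1a1 and Eif5a2 0.022 to 0.055 of Eif5a over the 14 libraries, and Eif4a2 was 1.15 to 1.65 times Eif4a1. Eif4g3 was 0.299 to 0.602 of Eif4g1, Eif1b 0.396 to 0.524 of Eif1, and Eif4e2 0.222 to 0.444 of Eif4e. Eif4ebp2 ranged widest, from 0.606 to 3.53 times Eif4ebp1.

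The log2 ratio of Eif4ebp2 to Eif4ebp1 CPM was 2.93, 3.02 and 2.21 in the EYFP IPs of H, I and K and 0.65, 1.71, 1.63 and 2.23 in the tau IPs of B, C, L and M. The groups overlapped through EYFP animal K and tau animal M. The difference was -1.17 in IP (exact two-sided permutation p = 0.0857, adjusted p = 0.60) and -0.12 in pre-IP (exact p = 0.60, adjusted p = 0.942). The ratio of Eif4g3 to Eif4g1 was above its pre-IP value in the IP of 6 of 7 animals, by 0.27 on average (SD 0.32, exact p = 0.0625, adjusted p = 0.60). None of the 28 comparisons of ratios passed adjustment. The smallest p that 7 animals allow is 0.0156 for the fractions and 0.0286 for the treatments, so no single ratio of either kind could have passed alone after adjustment over 28.

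**Figure D5:**
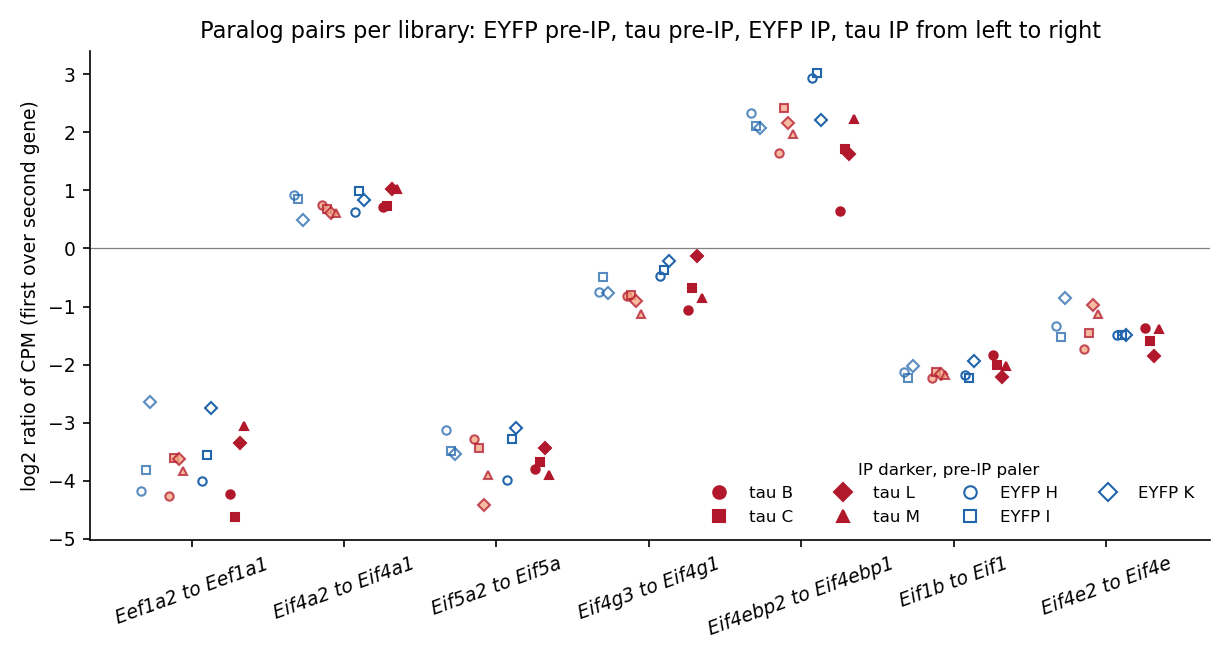
Log2 ratio of CPM (vertical axis) for 7 pairs of related genes (horizontal axis), with 1 symbol per library and the groups EYFP pre-IP, tau pre-IP, EYFP IP and tau IP from left to right within a pair. Eif4ebp2 to Eif4ebp1 spreads from 0.65 in tau IP of animal B to 3.02 in EYFP IP of animal I, the widest of the pairs.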

How the data were processed

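Per the submitters' processing notes, reads were handled with FastQC, Trim Galore, STAR and featureCounts on GRCm38 (mm10); versions, the strand setting and the treatment of reads with several matches are not given in the sources used here. The deposited count table holds whole-number counts per gene and library, not normalized. Per the labels' protocols, polyadenylated RNA was purified on columns, and libraries were made with SMART-Seq v4 and Nextera XT. Of nonzero deposited counts under 20, 76.1% were even. The sheet of samples deposited by the authors lists a quality score for the RNA of each library (RIN, its integrity number) and its concentration, and the deposited gene table gives symbols and exon lengths; how these were made is not stated there.

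The members and gene lists were chosen with earlier results of these data known, and the sequence features, library-total overlaps and order of animals were examined after values were seen. Tests used edgeR 4.0.16 under R 4.3.3 (glmQLFit and glmQLFTest, quasi-likelihood) after filterByExpr, with TMM scaling and Benjamini-Hochberg adjustment over all genes tested, at 0.05; limma 3.58.1 and DESeq2 1.42.0 were alternatives. The standard error is the log2 fold change over the square root of F. CPM uses TMM-scaled library sizes. IP against pre-IP had treatment as a term over all 14 libraries and no term for the animal. The animal pairs its fractions, and deviations from group means correlated within every animal (0.147 to 0.359). Paralog ratios used log2 of CPM plus 0.5 and exact permutation over sign patterns or 35 splits, two-sided, adjusted over 28. Total counts ran from 41843489 to 65664551, and the floor of 3 counts covers counting error only. Coding sequences came from GENCODE M21, whose starts and ends were equal to those in the deposited gene table for 50924 shared genes.

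Genes were named by a rule: the 6 largest changes in each direction past the threshold in IP against pre-IP, the 3 smallest p-values in each direction in the other comparisons, the 5 highest levels per length, the 7 pairs, the eIF2 kinases, 4E-BPs, eIF4Gs, Eef2, Eef2k, Eif2s1, Eif6 and the terminal oligopyrimidine factors. Other members were named to complete their role group, and examples from the other translation genes were picked after their values were seen. The calls were tested before use on simulated counts. These were drawn independently for each library without pairing by animal, so that test does not cover the pairing.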

Additional observations from a re-analysis of the deposited data

Results flagged for a closer look

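In groups of 4 libraries, a library was picked out where its gap to the nearest of the others was large against the range of the group. Chance picks out about 1 in 20 groups, and 4 of the 104 groups examined were picked out. Both in tau IP, Eef1b2 was highest in animal B with 317.6 CPM, against 255.5 to 261.7 in the other 3 animals, and Eif5a was highest in animal B with 1606 CPM, against 1112 to 1182. In tau pre-IP, Eif3i was highest in animal B with 229.2 CPM, against 202.5 to 205.6, and Eif4h was highest in animal M with 825.2 CPM, against 674.1 to 690.1. Animal B also had the highest noradrenergic enrichment (4.25) and the lowest RNA concentration in IP (0.1 ng per microlitre). Without animal B, the log2 difference between the IPs kept its sign for Eef1b2 and Eif5a, whose values with 1 animal left out ran from 0.39 to 0.48 and from 0.35 to 0.52.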

How the results depend on the processing

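The counts of factors called and the medians were recomputed under the other scalings, filters, tools, covariates and with each animal left out. Paralog ratios were recomputed with another added constant and with each animal left out. Of all these values, 402 were labelled as unchanged, 9 as moved and 1, a median, as reversed, while no tested call was reversed. The last label needed a change of sign and a reported median above the SD between animals, so other medians near 0 changed sign without it. Ratios were labelled unchanged whenever no test passed, whatever their value, so the 402 do not measure closeness for them. For IP against pre-IP, the EYFP animals alone gave 7 factors higher and 0 lower. Leaving out 1 animal gave 13 to 19 higher (13 without L), 5 to 8 lower (8 without B) and a median of 0.1165 (without H) to 0.1691. For tau IP against EYFP IP, DESeq2 called 3 factors, 1 fit of all 14 libraries called 1, library totals gave a median of 0.0050, and noradrenergic enrichment as a covariate turned the median to -0.0510. For the pre-IPs the median was 0.0053 to 0.0900 with 1 animal left out, the highest without I. For the interaction, the median of 0.0495 turned to -0.0558 with library totals, -0.0070 with limma-voom and -0.0041 with the animal as a block.

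Adding the animal as a block, so that its fractions are paired, IP against pre-IP gave 20 factors higher and 5 lower: 23 of the 24 calls were shared, Eef1b2 was lost and Eif1ax and Eif3c were gained. The interaction gave 0 factors with the block. Eif2s2, Eif3a, Eif3j1, Eif5 and Eif5b kept their calls in 15 of 15 alternatives, and Eef1b2 in 6 of 15. Scarce factors such as Eif2ak2 and Eif3j2 rest on few counts. The unpaired form of the paralog ratios has the same mean differences by arithmetic, since every animal has both fractions, so it is no check of them.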
